A study of Mus musculus with 15 samples.

Results

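The comparison described here is that of cells carrying the second of a pair of short hairpin RNAs against SHCBP1 (group shSHCBP1_2, 3 libraries) with cells carrying a control hairpin (group NC, 3 libraries). These 6 libraries, of 15 in the series, were chosen by their labels, and only they entered the fit. The labels name the same line, MDA-MB-468, for both groups. It is an established human line of invasive breast carcinoma with basal-like features, grown here in DMEM with serum and transfected with the hairpin, so that both groups share a hairpin and differ in its target. Whether the cells were a clone or a pool, what drives the hairpin and when RNA was taken is not in the labels. Nor do they tie the 3 libraries of a group to separate cultures, so p-values reflect library-to-library spread, which may be technical. The series deals with a prognosis model of breast cancer whose genes relate to disulfidptosis. In that kind of cell death, disulfide stress under glucose shortage collapses the actin skeleton.

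SHCBP1 binds the SHC1 adaptor, which passes signals from growth factor receptors through GRB2 and SOS1 to RAS and the ERK kinases. In dividing cells the protein sits at the midbody, the bridge left between daughter cells, with the centralspindlin pair KIF23 and RACGAP1. It is known as a gene of proliferating cells that is often high in tumours. A short hairpin RNA is cut by Dicer into a guide strand, which leads Argonaute to matching messenger RNA for cleavage, so the level of the targeted transcript is the usual readout of such a knockdown.

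The stated hairpin sequences are shown because the guide defines the treatment. In the 2 hairpins below the guide strand is in capitals and the lower-case letters hold the passenger arm, the loop and the flanks.
sh-SHCBP1-2: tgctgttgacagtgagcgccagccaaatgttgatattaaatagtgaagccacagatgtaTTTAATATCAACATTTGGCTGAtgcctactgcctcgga
sh-SHCBP1-1: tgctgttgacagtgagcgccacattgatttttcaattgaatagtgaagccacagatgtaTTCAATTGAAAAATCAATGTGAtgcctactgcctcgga
The first line belongs to the libraries analysed here and the other to the first hairpin against the same gene. Both are 97 bases long, and in each the passenger arm pairs with 21 of the 22 guide bases. The guides alone, with bases 2 to 8 (the seed, which pairs first with a target) in capitals, differ in their seeds.
Guide of sh-SHCBP1-2: tTTAATATcaacatttggctga
Guide of sh-SHCBP1-1: tTCAATTGaaaaatcaatgtga
The labels give the mouse as organism, while the table carries human gene symbols. In the 7 mouse Shcbp1 transcripts of GENCODE M21 the best site for the second guide had 8 mismatches over 22 bases, and that for the first guide had 7. A human transcript set was not used here.

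Sequencing depth was even across the 6 libraries, at 13780294 to 14400254 counts, and the groups stood on opposite sides of the first principal component, which took 74.3% of the variance. The 10 most abundant genes took 6.85% to 6.91% of counts in NC and 5.51% to 5.61% in shSHCBP1_2. Levels below are in CPM (counts relative to the library size, with the library size scaled by the trimmed mean of M-values, TMM), and changes are log2 changes of shSHCBP1_2 over NC with their standard error (SE). The labelled line was checked against its markers before the comparison. Of 38 keratin and epithelial genes of basal-like breast lines only 15 had enough counts to be tested, and 9 were at 0 in all 6 libraries (KRT5, KRT6A, KRT6B, KRT16, KRT23, TP63, PKP1, S100A8 and S100A9). KRT14 had 7 counts over the NC libraries and 1 over shSHCBP1_2. Others of the list were present: KRT8, DSP, KRT18 and CDH1 averaged 84.6, 78.9, 47.5 and 12.8 CPM in NC. The 38 genes summed to 295 to 299 CPM in NC and 322 to 334 CPM in shSHCBP1_2. RB1 and SMAD4, a cell-cycle brake and a TGF-beta signal carrier that are both known to be deleted in MDA-MB-468, stood at 23.7 ± 0.719 and 28.5 ± 2.40 CPM in NC (mean ± SD, n = 3, here and below). Of 26 neurofilament, neural and embryonic kidney genes 23 could be tested, with a summed level of 1180.1 to 1216 CPM in NC and 1129 to 1150.4 CPM in shSHCBP1_2. ENO2 and UCHL1 made 163 and 167 CPM of this sum in NC. The neurofilament gene NEFM was at 272 ± 4.95 CPM in NC and the mesenchymal filament gene VIM at 446 ± 15.9 CPM. The basal-like genes at 0, the presence of RB1 and SMAD4 and the level of NEFM go against the labelled line in both groups. EGFR and EPCAM, also of the epithelial list, averaged 17.4 and 5.11 CPM in NC. Whether the levels of the epithelial genes that were present match the labelled line was not tested. The libraries are called here by their group labels. Few markers of other cell types could be tested: fibroblast genes had 6 of 14 members tested and leukocyte and endothelial genes 7 of 20. By level the fibroblast genes summed to 264 to 269 CPM in NC, 175 of it from FBLN1. Leukocyte and endothelial genes summed to 14.8 to 15.4 CPM in NC. PTPRC, the pan-leukocyte antigen, was at 0 in all 6. A 0 in this table is not proof of silence, since EEF1G, an elongation factor gene in general use by cells, is also listed at 0 in all 6 libraries.

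SHCBP1 itself did not pass the test. It stood at 49.4, 47.6 and 44.1 CPM in NC and at 48.3, 48.3 and 46.2 CPM in shSHCBP1_2. The groups overlapped, and the log2 change was 0.016 (SE 0.063, edgeR adjusted p = 0.856). Its 95% interval ran from -0.11 to 0.14, so the transcript lay between 92.5% and 110.5% of its NC level. The hairpin's target was therefore not detectably lower in the libraries labelled shSHCBP1_2, and every direction below is that of libraries with this label. Scaled by total counts, SHCBP1 passed as higher (0.17, edgeR adjusted p = 0.0229).

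**Figure D1:**
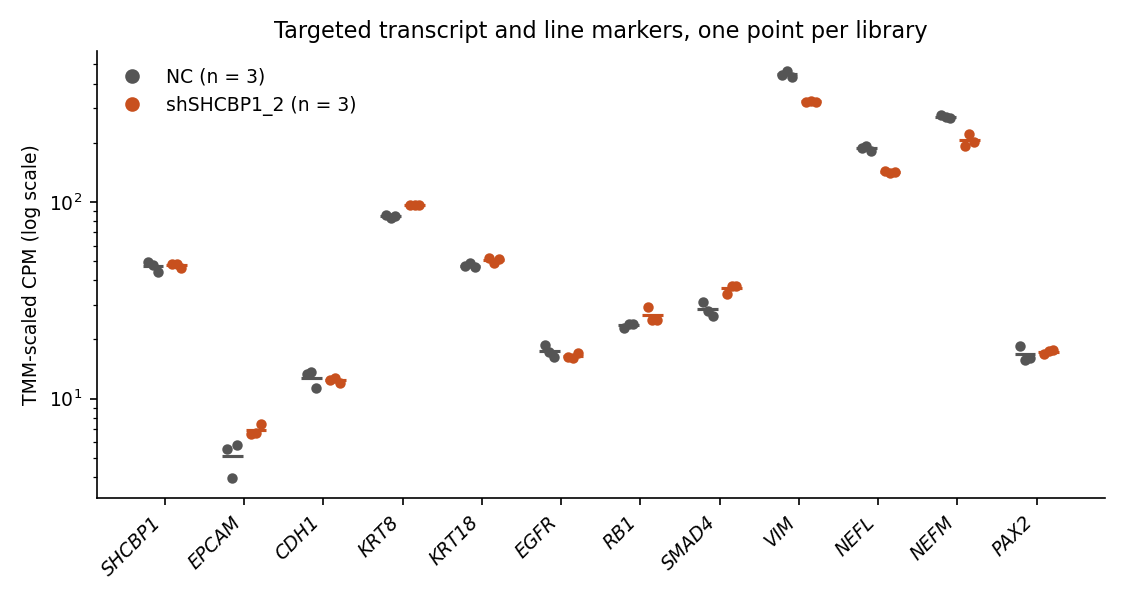
TMM-scaled CPM on a log axis for SHCBP1 and 11 line markers, one point per library and a bar at the mean of each group of 3. SHCBP1 overlaps between the groups around 47 CPM, RB1 and SMAD4 are at 23.7 CPM or more on average in both groups, and the neurofilament genes NEFL and NEFM stand far above EPCAM and CDH1.

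Elsewhere in the transcriptome many genes differed, mostly by less than 1.5-fold. These are bulk samples, in which fewer cells of a type and less RNA per cell cannot be told apart. Of 17391 genes tested, 8029 passed an adjusted p of 0.05 (46.2%), 4031 as higher (23.2%) and 3998 as lower (23%). More than 1.5-fold changes were found in 2262 genes (13% of all tested) and more than 2-fold changes in 872 (5.01% of all tested), 547 higher (3.15%) and 325 lower (1.87%). Of these 872, 706 had a mean log2 CPM under 2. All 3 libraries of shSHCBP1_2 lay above all 3 of NC in 27.1% of genes and below them in 25.8%. The share of rises among calls depended on the scale: with total counts in place of TMM it was 77.3% (6853 higher, 2012 lower) against 50.2%. That choice moved the median of all genes from 0.01 to 0.17, so a group is read below against a median of 0.01, and its counts under total scaling are given where they change its direction. Other listed scalings, RLE and the upper quartile, left these counts within 1.5 times. For the share of calls in a group, the background is 23.2% higher and 23% lower over all genes tested. Counts and medians of a group under total scaling are to be set against that scaling's own background. That background is 6853 higher and 2012 lower of 17391 genes, with a median of 0.17. A group whose sign turns can thus still lie below the median of all genes.

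Calls differed by expression level, and shares within bands of level were taken only for ribosomal protein, ZNF, antisense and histone genes. When genes were split into 5 bands of equal size by mean level, 16.4% of the highest band were higher and 51.3% lower, with a median log2 change of -0.11. In the middle band 33.7% were higher and 14.9% lower, with a median of 0.10. Of the 100 genes of highest level, 92 fell and 5 rose, with a median of -0.37, which was -0.21 under total scaling. EEF1A1, the elongation factor that brings tRNA to the ribosome, stood at 12056, 11621 and 11645 CPM in NC and at 7196, 7308 and 7177 CPM in shSHCBP1_2, a change of -0.70 (SE 0.022, edgeR adjusted p = 3.0e-25). All NC libraries were far above all shSHCBP1_2 libraries for this gene.

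**Figure D2:**
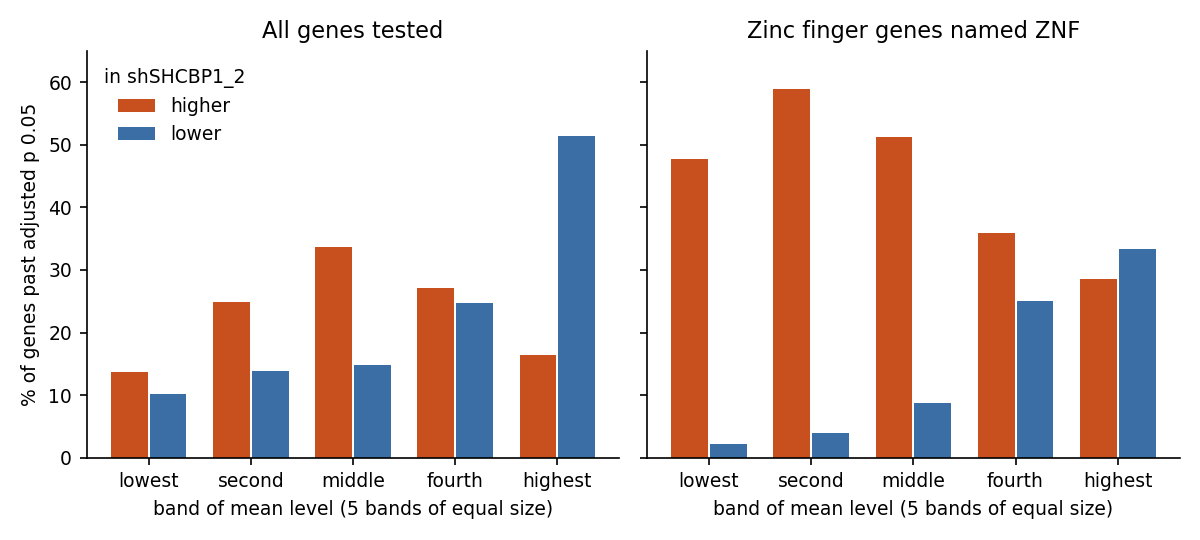
Percentage of genes past an adjusted p of 0.05 as higher or lower in shSHCBP1_2, by band of mean level, for all 17391 genes (left) and for 419 genes named ZNF (right). Falls take 51.3% of all genes in the highest band, while rises take 58.9% of ZNF genes in the second lowest band.

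**Figure D3:**
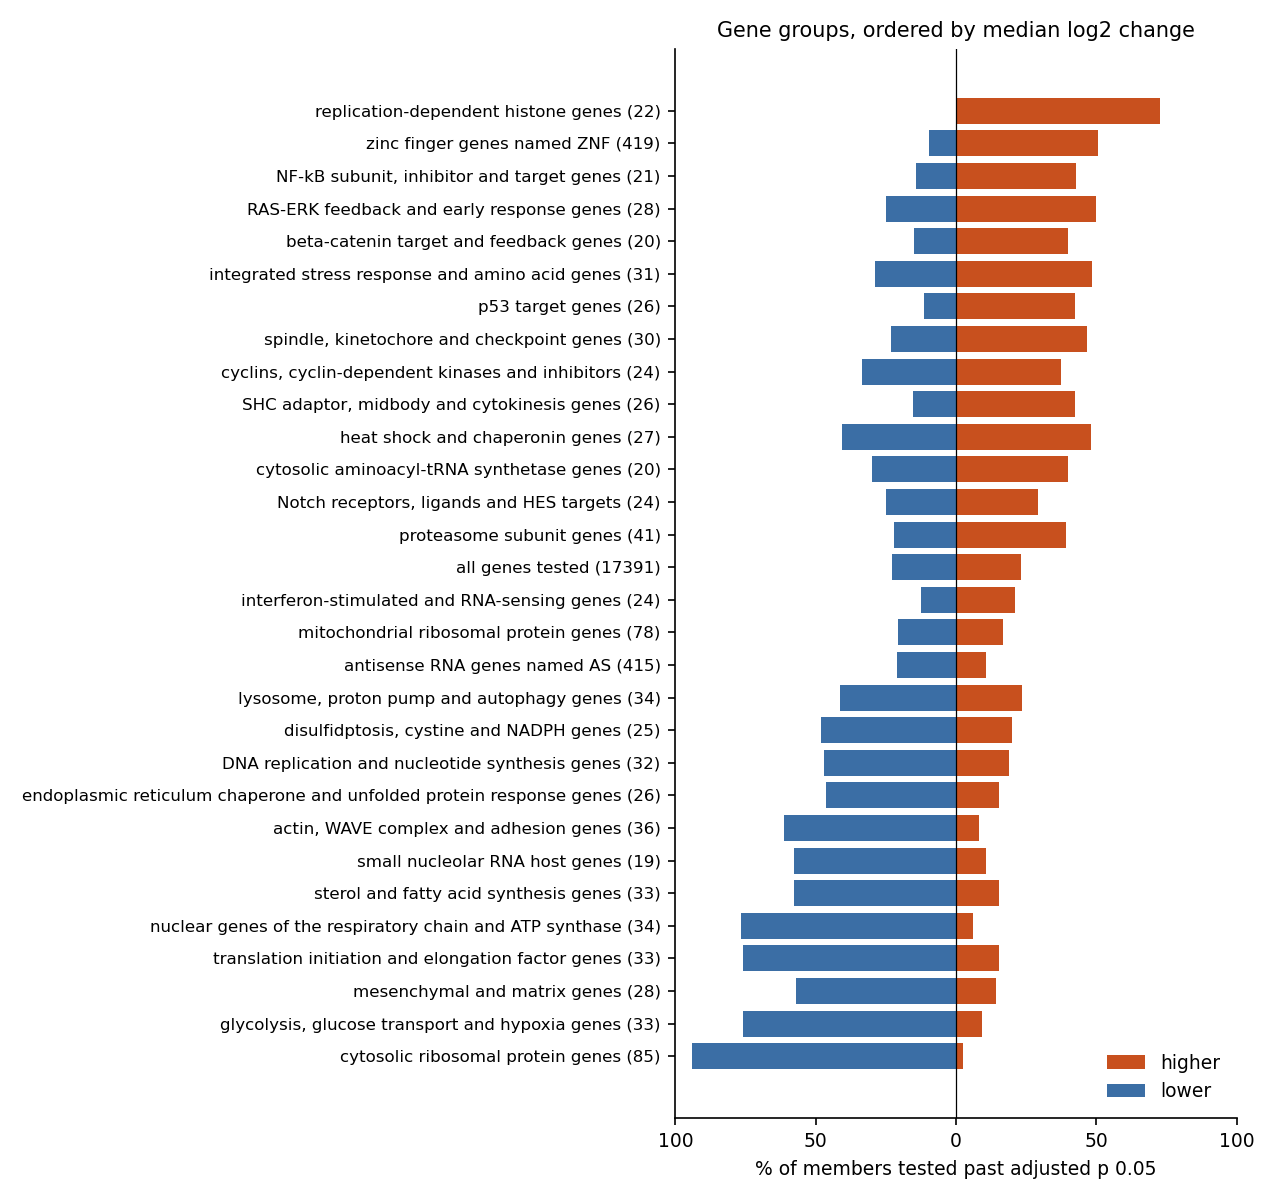
Percentage of tested members called higher (to the right) or lower (to the left) in the gene groups shown, with the number tested in brackets, ordered by the median log2 change. Of the groups drawn, ribosomal protein genes stand at one end with 80 of 85 lower, and histone genes at the other with 16 of 22 higher.

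The largest rise among genes of at least 2 mean log2 CPM was that of DHRS2, a short-chain dehydrogenase. It stood at 4.22, 4.78 and 4.79 CPM in NC and at 55.0, 55.2 and 60.5 CPM in shSHCBP1_2. Every shSHCBP1_2 library was more than 10 times above every NC library, and the change was 3.63 (SE 0.097, edgeR adjusted p = 1.8e-27). CHAC1, which degrades glutathione and is a target of the integrated stress response, stood at 1.70, 1.42 and 1.18 CPM in NC and at 12.4, 11.3 and 12.8 CPM in shSHCBP1_2. It too had no overlap, as the choice of the 12 largest rises required, with a change of 3.08 (SE 0.18, edgeR adjusted p = 7.1e-17). ZBTB2, a zinc finger and BTB domain regulator of transcription, was at 4.67, 6.87 and 6.19 CPM in NC and at 19.1, 16.4 and 19.5 CPM in shSHCBP1_2, a change of 1.63 (SE 0.13, edgeR adjusted p = 2.5e-13). LRIF1, a nuclear protein known from the inactive X chromosome, was at 5.26, 3.51 and 3.17 CPM in NC and at 11.5, 13.04 and 12.6 CPM in shSHCBP1_2, a change of 1.63 (SE 0.15, edgeR adjusted p = 3.3e-11). The lowest shSHCBP1_2 library was above the highest NC library for both, again by selection. RASD2, a small GTPase of the RAS family, rose by 1.62, and the zinc finger genes ZNF28 and ZNF510 rose by 1.59 and 1.44. HIST1H2BJ, a histone H2B gene with near-identical relatives, rose by 1.46. The remaining 4 of the 12 largest were C1orf226 (1.74), KRCC1 (1.66), FAM200A (1.64) and VSTM2L (1.45).

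Among the 12 largest falls, XIST, the non-coding RNA that coats and silences an X chromosome, was the most abundant. It stood at 4975, 5365 and 5230.4 CPM in NC and at 1988, 1904 and 2048 CPM in shSHCBP1_2. The highest shSHCBP1_2 library was under every NC library by more than 2-fold, and the change was -1.39 (SE 0.028, edgeR adjusted p = 7.1e-32). Reads of its antisense partner cannot be told apart without strand. RN7SL2, an RNA of the signal recognition particle with near-identical copies and so of uncertain value, went from 22.9 ± 2.88 CPM in NC to 5.72 ± 1.14 in shSHCBP1_2. CDHR5, a cadherin of microvilli, stood at 14.7, 12.99 and 17.8 CPM in NC and at 4.14, 5.00 and 5.70 CPM in shSHCBP1_2, a change of -1.61 (SE 0.14, edgeR adjusted p = 3.9e-12). FN1, which encodes the matrix protein fibronectin, stood at 183, 186 and 189 CPM in NC and at 89.7, 82.9 and 89.6 CPM in shSHCBP1_2, a change of -1.09 (SE 0.043, edgeR adjusted p = 5.7e-22). COL14A1, a collagen that binds fibrils, stood at 139, 132 and 136 CPM in NC and at 68.9, 62.7 and 63.1 CPM in shSHCBP1_2, a change of -1.07 (SE 0.049, edgeR adjusted p = 3.0e-20). None of these 3 overlapped between the groups, which their selection required. The other 7 of the 12 largest falls were ARHGAP8, a GTPase-activating gene that also lies in a readthrough transcript (-1.37), DEXI (-1.14), LRP1B of the LDL receptor family (-1.10), MGC12916 (-1.09), the monocarboxylate carrier SLC16A4 (-1.07), GLIPR1 (-1.06) and the RNA-binding gene RBM34 (-1.06).

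**Figure D4:**
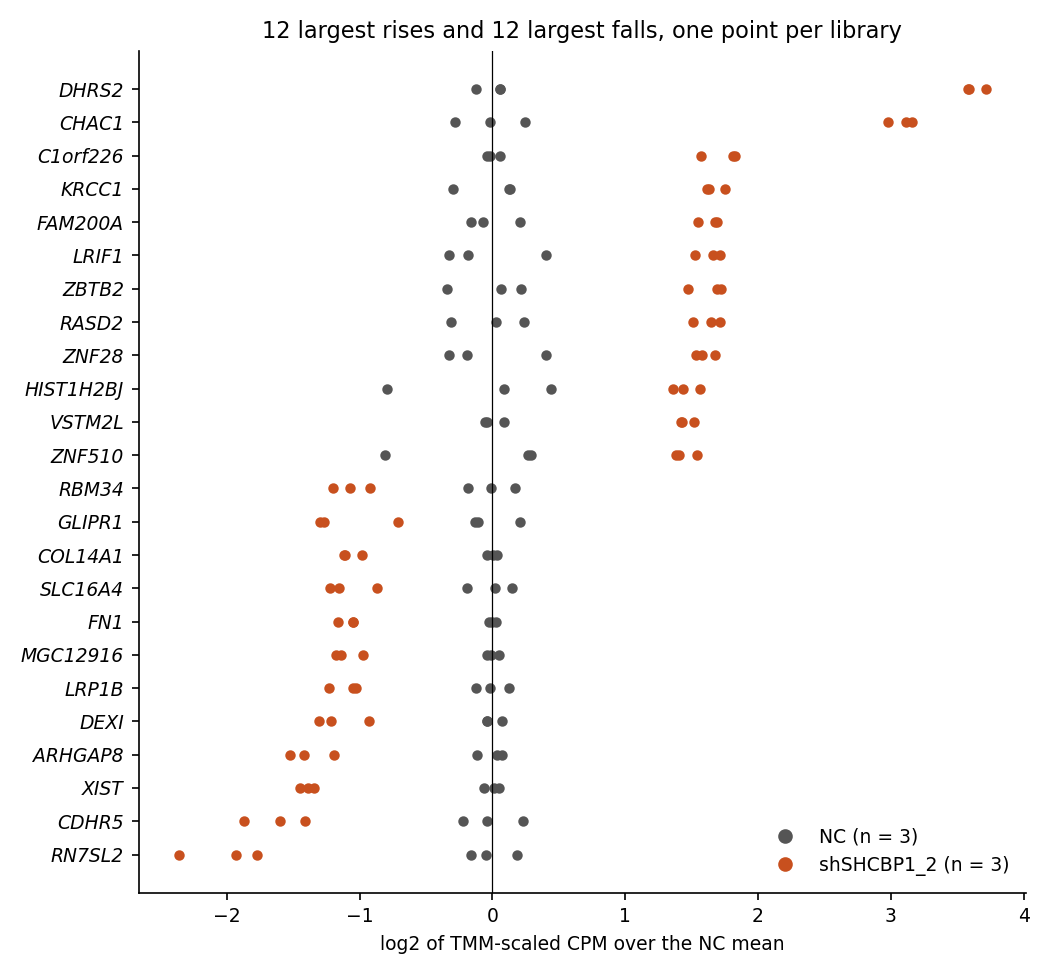
Level of the 12 largest rises and 12 largest falls in each library, as log2 of TMM-scaled CPM over the NC mean of the same gene. DHRS2 and CHAC1 stand apart at about 3 and above, and no gene shown overlaps between the 3 NC and the 3 shSHCBP1_2 libraries, which the choice of these genes required.

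The direct partners SHC1 and RACGAP1 did not pass the test. Of 26 SHC adaptor, midbody and cytokinesis genes, all tested, 11 rose and 4 fell (median 0.078). SHC1 had a change of -0.10 (SE 0.057, edgeR adjusted p = 0.136) and RACGAP1 one of -0.070 (SE 0.043, edgeR adjusted p = 0.191). KIF23, the motor of centralspindlin, passed as lower at -0.16 (SE 0.048, edgeR adjusted p = 0.00717), a change that was gone under total scaling. PRC1, which bundles the central spindle, fell by 0.58 on the log2 scale, from 11.8 ± 1.93 CPM in NC to 7.87 ± 0.707 in shSHCBP1_2 (SD, n = 3). CEP55, which recruits the abscission machinery, rose by 0.47. Of the other SHC family members, SHC2 rose by 0.48, from 12.6 ± 1.32 CPM in NC to 17.5 ± 1.21 in shSHCBP1_2. SHC3 and SHC4 also passed as higher (1.15 and 0.99), but at about 1 CPM. The call of SHC3 was lost without NC replicate 2, NC replicate 3 or shSHCBP1_2 replicate 2 (1.02, 1.01 and 1.05). That of SHC4 was lost without any single library other than shSHCBP1_2 replicate 2 (0.98, 1.08, 0.90, 0.87 and 0.96).

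Mitotic genes moved in both directions. Of 30 spindle, kinetochore and checkpoint genes 14 rose and 7 fell (median 0.10). MKI67, which coats mitotic chromosomes and is read as a proliferation marker, stood at 183, 188 and 178 CPM in NC and at 259, 264 and 280.1 CPM in shSHCBP1_2, a change of 0.55 (SE 0.038, edgeR adjusted p = 9.9e-15). TOP2A, the topoisomerase of replicating and dividing cells and another proliferation marker, stood at 435, 442 and 420.4 CPM in NC and at 333, 339 and 339.7 CPM in shSHCBP1_2, a change of -0.36 (SE 0.033, edgeR adjusted p = 1.2e-11). These markers moved in opposite directions with no overlap in either. The kinetochore genes CENPF and CENPA rose by 0.63 and 0.52, while CDK1, the kinase that drives mitotic entry, fell by 0.35 on the log2 scale. Under total scaling 20 higher and 3 lower were called.

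Of 32 DNA replication and nucleotide synthesis genes, 6 rose and 15 fell (median -0.088). Under total scaling the sign turned (15 higher and 8 lower, median 0.068), but the median stayed below the 0.17 of all genes. RRM2, a subunit of ribonucleotide reductase, stood at 248, 262 and 229 CPM in NC and at 154, 148 and 145 CPM in shSHCBP1_2, a change of -0.72 (SE 0.042, edgeR adjusted p = 6.0e-17). CDT1, which licenses replication origins, and POLE, the leading-strand polymerase, fell by 0.41 and 0.39 on the log2 scale, whereas MCM10 rose by 0.54 and TK1, a thymidine kinase, by 0.47. Cyclins, their kinases and inhibitors split evenly, 9 higher and 8 lower of 24 (median 0.094, and 14 higher and 6 lower under total scaling). CCND1, the G1 cyclin D1, stood at 30.4, 29.9 and 32.4 CPM in NC and at 56.3, 55.1 and 55.7 CPM in shSHCBP1_2, a change of 0.85 (SE 0.066, edgeR adjusted p = 1.6e-13). CDKN1B, the CDK inhibitor p27, rose as well, from 19.6 ± 2.21 CPM in NC to 34.7 ± 1.06 in shSHCBP1_2, a change of 0.83 (SE 0.082, edgeR adjusted p = 1.2e-10). E2F3, an activator of S-phase genes, rose by 0.83, and cyclin G1, CCNG1, fell by 0.47 on the log2 scale. Of 26 p53 target genes 11 rose and 3 fell (median 0.16). SESN2, a stress sensor that restrains mTORC1, rose by 1.01 and AEN, a nuclease of apoptosis, by 0.91. MDM2, the p53 ubiquitin ligase, rose by 0.39, while GADD45A fell by 0.23 on the log2 scale, a call lost under total scaling. BBC3 and FAS did not pass (0.070 and -0.11).

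Genes that report on RAS-ERK signalling, downstream of SHC1, did not move as a block. Of 28 feedback and early response genes tested, 14 rose and 7 fell (median 0.27). The ETS factor genes ETV4 and ETV5, which ERK induces, stood among the rises. ETV4 was at 2.89, 5.15 and 4.94 CPM in NC and at 11.2, 11.4 and 10.3 CPM in shSHCBP1_2, a change of 1.34 (SE 0.16, edgeR adjusted p = 7.2e-09). ETV5 was at 0.741, 0.523 and 1.18 CPM in NC and at 2.62, 2.10 and 2.95 CPM in shSHCBP1_2, a change of 1.64 (SE 0.33, edgeR adjusted p = 8.9e-05). The lowest shSHCBP1_2 library was above the highest NC library for both, though ETV5 rests on 33 counts in NC. Feedback inhibitors split: SPRY2 and SPRED1 rose by 0.33 and 0.64, while SPRY1 and the phosphatase gene DUSP1 fell by 0.31 and 0.26 on the log2 scale, the former not under total scaling. MYC rose by 0.49. The immediate early gene FOS stood at 70.9, 68.6 and 76.2 CPM in NC and at 51.2, 50.7 and 50.2 CPM in shSHCBP1_2, lower without overlap, with a change of -0.50 (SE 0.057, edgeR adjusted p = 2.5e-09). FOSB fell by 0.53 on the log2 scale and CYR61 (CCN1), a matricellular gene, by 0.81. DUSP6 and EGR1 did not pass (0.43 and -0.073).

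Beta-catenin target and feedback genes had 8 of 20 higher and 3 lower (median 0.22). The count of rises was 5 without NC replicate 1 and 5 without shSHCBP1_2 replicate 2. APC, which marks beta-catenin for destruction, rose by 0.83 (SE 0.11, edgeR adjusted p = 8.1e-08), and LGR4, an R-spondin receptor, changed by -0.43 (SE 0.071, edgeR adjusted p = 3.8e-06). CTNNB1, beta-catenin itself, did not pass (0.016). Notch receptors, ligands and targets had 7 of 24 higher and 6 lower (median 0.032, and 9 higher and 3 lower under total scaling). The target genes HES5, HES1 and HEY1 were among the rises and HES4, the most abundant member, among the falls. HES5 was at 0.593, 1.42 and 0.295 CPM in NC and at 3.66, 2.70 and 3.36 CPM in shSHCBP1_2, a change of 2.07 (SE 0.34, edgeR adjusted p = 4.2e-06). That change rests on 31 counts in NC, and HES5 passed the filter through shSHCBP1_2 alone. HES1 went from 46.1 ± 3.28 CPM in NC to 70.8 ± 4.31 in shSHCBP1_2, a change of 0.62 (SE 0.062, edgeR adjusted p = 1.1e-10). HES4 went from 284 ± 27.5 CPM in NC to 229 ± 4.16 in shSHCBP1_2, a change of -0.31 (SE 0.043, edgeR adjusted p = 2.3e-07). HEYL, another target gene, passed as lower at -0.23, a call lost without NC replicate 1 or 3 or shSHCBP1_2 replicate 2 or 3 (-0.25, -0.20, -0.20 and -0.19) and under total scaling. RBPJ, the DNA-binding partner of cleaved Notch, fell by 0.47 on the log2 scale, and the ligand gene JAG1 by 0.33, the latter not under total scaling.

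Stress genes split by kind. Of 31 integrated stress response and amino acid genes 15 rose and 9 fell (median 0.17). Beside CHAC1, SESN2 stood at 38.5, 38.5 and 39.9 CPM in NC and at 79.7, 80.2 and 74.96 CPM in shSHCBP1_2, a change of 1.01 (SE 0.058, edgeR adjusted p = 3.8e-17). SLC3A2 and SLC7A11, the chains of the cystine carrier that disulfidptosis depends on, rose together. SLC3A2 was at 198, 191 and 205 CPM in NC and at 314, 313 and 308 CPM in shSHCBP1_2, a change of 0.65 (SE 0.036, edgeR adjusted p = 8.9e-18). SLC7A11 was at 7.78, 7.02 and 6.85 CPM in NC and at 10.0, 11.9 and 11.7 CPM in shSHCBP1_2, a change of 0.63 (SE 0.13, edgeR adjusted p = 1.1e-04). The pseudokinase gene TRIB3 and the factor genes CEBPB and CEBPG rose by 0.76, 0.66 and 0.69. ATF4, the factor that drives this program, and DDIT3 did not pass (-0.037 and 0.063), and ATF3 and PPP1R15A fell by 0.55 and 0.31 on the log2 scale. Among enzymes of serine and one-carbon metabolism, PSAT1 and PSPH did not pass (-0.051 and 0.17), though PSAT1 passed as lower without NC replicate 3 (-0.100) and both as higher under total scaling, and others fell: MTHFD2 went from 323 ± 10.2 CPM in NC to 205 ± 3.99 in shSHCBP1_2, SHMT2 changed by -0.60 and PHGDH by -0.41. CBS, which has a near-identical copy, stood at 103, 99.99 and 186 CPM in NC and at 74.4, 87.1 and 78.1 CPM in shSHCBP1_2. Its change of -0.70 rested in part on NC replicate 3 and was -0.35 without that library. Of 20 cytosolic aminoacyl-tRNA synthetase genes, which charge tRNA, 8 rose and 6 fell (median 0.054), with CARS (CARS1) at 0.76, AARS (AARS1) at 0.39 and QARS (QARS1) at -0.54.

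**Figure D5:**
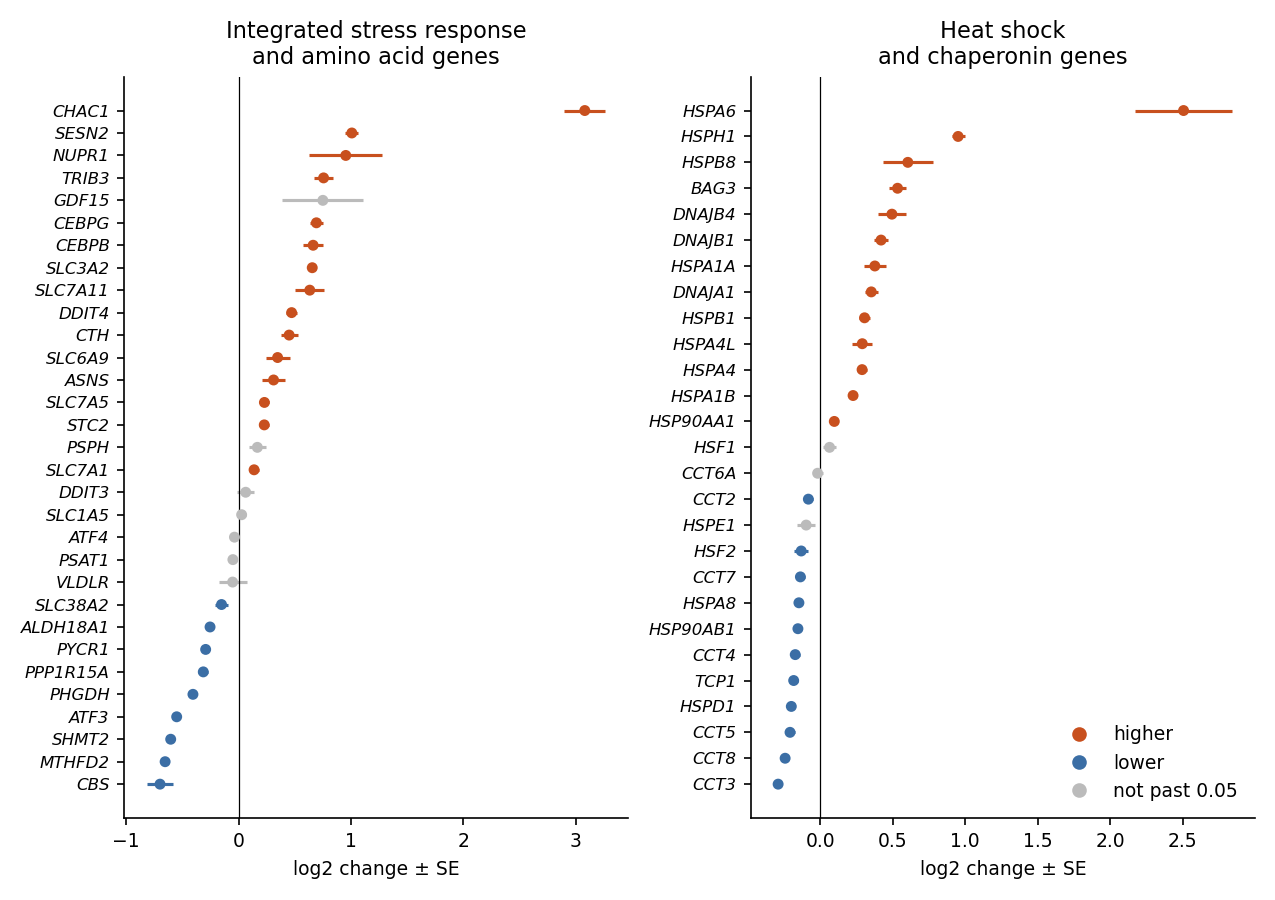
Log2 change with its SE (line) for 31 integrated stress response and amino acid genes (left) and 27 heat shock and chaperonin genes (right), coloured by call at an adjusted p of 0.05. CHAC1 and HSPA6 lead the rises, CBS, MTHFD2 and SHMT2 stand at the lower end on the left, and the CCT chaperonin genes at the lower end on the right.

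Chaperone genes moved in both directions. Of 26 endoplasmic reticulum chaperone and unfolded protein response genes, 4 rose and 12 fell (median -0.10), but total scaling gave 9 higher and 9 lower (median 0.056). The count of rises was 2 without shSHCBP1_2 replicate 3. HSPA5, the main chaperone of that compartment, stood at 10476, 10242 and 10408 CPM in NC and at 6492, 6389.8 and 6416 CPM in shSHCBP1_2, a change of -0.69 (SE 0.022, edgeR adjusted p = 3.0e-25). HSP90B1 fell from 2222 ± 84.8 CPM in NC to 1389 ± 30.4 in shSHCBP1_2, and PDIA6, a disulfide isomerase, by 0.51 on the log2 scale. HSPA5 and HSP90B1 were lower in 3 of 3 libraries. Of 27 heat shock and chaperonin genes, all of the cytosol and nucleus except the mitochondrial pair HSPD1 and HSPE1, 13 rose and 11 fell (median 0.065), against 15 higher and 2 lower under total scaling. The largest rises were those of stress-inducible members. HSPA6 stood at 0.519, 1.05 and 0.442 CPM in NC and at 4.35, 2.37 and 4.81 CPM in shSHCBP1_2, a change of 2.51 (SE 0.33, edgeR adjusted p = 7.6e-08), on 27 counts in NC. HSPH1, a nucleotide exchange factor for HSP70, was at 81.8, 80.0 and 74.8 CPM in NC and at 151, 153 and 154 CPM in shSHCBP1_2, a change of 0.95 (SE 0.045, edgeR adjusted p = 1.3e-19). BAG3 and DNAJB1, HSP70 cochaperones, rose by 0.53 and 0.42. The 8 subunits of the CCT chaperonin fold actin and tubulin. TCP1, CCT3, CCT4, CCT5, CCT7 and CCT8 fell, by 0.14 (CCT7) to 0.29 (CCT3) on the log2 scale, but under total scaling only CCT3 and CCT8 of the 8 passed as lower, and CCT2, CCT6A and CCT7 turned (0.075, 0.14 and 0.020). CCT2 passed at -0.081, a call lost without NC replicate 1 or any 1 of the shSHCBP1_2 libraries (-0.080, -0.092, -0.071 and -0.079), and CCT6A did not pass (-0.018).

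Most genes of the translation machinery were lower. Of 85 cytosolic ribosomal protein genes tested, of 88 named, 80 fell and 2 rose (median -0.36), and under total scaling 77 fell and 4 rose (median -0.21). They took 10.3% ± 0.166 of counts in NC and 8.74% ± 0.0958 in shSHCBP1_2 (SD, n = 3). In the highest band of level, 98.7% of these genes fell, beside 51.3% of all genes there. RPL7A stood at 3871, 3755 and 3895 CPM in NC and at 2597, 2512 and 2553 CPM in shSHCBP1_2, a change of -0.59 (SE 0.024, edgeR adjusted p = 1.7e-21). The rises were RPL7L1 (0.11) and RPL39L (0.34), paralogs of core proteins. Neither passed without shSHCBP1_2 replicate 1 (0.10 and 0.24), and RPL7L1 did not without NC replicate 2 (0.089) or shSHCBP1_2 replicate 3 (0.10). Of 33 initiation and elongation factor genes 25 fell (75.8%) and 5 rose (median -0.27), with no comparison at matched level. EIF4A1, the helicase of initiation, went from 118 ± 1.82 CPM in NC to 64.2 ± 4.18 in shSHCBP1_2, a change of -0.88 (SE 0.050, edgeR adjusted p = 3.4e-17), and its partner EIF4B from 829 ± 17.6 CPM in NC to 472 ± 16.96 in shSHCBP1_2, a change of -0.81 (SE 0.031, edgeR adjusted p = 2.1e-22). EIF5 and EIF5B, also genes of initiation, rose by 0.66 and 0.40. Host genes of small nucleolar RNAs, whose introns carry guides for ribosomal RNA modification, had 11 of 19 lower and 2 higher (median -0.22), with 1 higher without shSHCBP1_2 replicate 3. SNHG1 stood at 1037, 1056 and 1040.2 CPM in NC and at 641, 626 and 639 CPM in shSHCBP1_2, a change of -0.72 (SE 0.028, edgeR adjusted p = 3.2e-22). Mitochondrial ribosomal protein genes showed no such run, with 13 of 78 higher and 16 lower (median -0.018), and 37 higher and 2 lower under total scaling.

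Genes of energy metabolism were mostly lower. Falls took 75.8% of the glycolysis, 76.5% of the respiratory and 57.6% of the sterol and fatty acid genes described below. Over all genes tested they took 23%, and 51.3% in the highest band of level. A comparison at matched level was not made for these groups. Of 33 glycolysis, glucose transport and hypoxia genes 25 fell and 3 rose (median -0.30, and -0.14 under total scaling). The count of rises was 1 whichever shSHCBP1_2 library was left out. GAPDH stood at 4453, 4336 and 4544 CPM in NC and at 2835, 2917 and 2814 CPM in shSHCBP1_2, a change of -0.64 (SE 0.025, edgeR adjusted p = 2.1e-22). P4HA1, a collagen prolyl hydroxylase induced by hypoxia, fell from 215 ± 9.44 CPM in NC to 118 ± 5.24 in shSHCBP1_2, a change of -0.87 (SE 0.043, edgeR adjusted p = 2.9e-19). The glucose carrier gene SLC2A1 rose by 0.14, a call lost without shSHCBP1_2 replicate 2 (0.13). Nuclear genes of the respiratory chain and ATP synthase had 26 of 34 lower and 2 higher (median -0.24, and -0.085 under total scaling). ATP5F1B, the catalytic subunit of ATP synthase, fell by 0.47 and UQCRC1 of complex III by 0.44 on the log2 scale. NDUFV2, a complex I subunit, fell from 6.38 ± 0.828 CPM in NC to 3.83 ± 0.168 in shSHCBP1_2. UQCRFS1, the Rieske protein, rose by 0.23. Transcripts of the mitochondrial genome took 3.54% ± 0.0543 of counts in NC and 3.59% ± 0.0510 in shSHCBP1_2, with 6 of 26 higher and 10 lower, but 10 higher and 4 lower under total scaling. MT-CYB rose by 0.29, while MT-CO1 and MT-ND4L fell by 0.24 and 0.34 on the log2 scale. Genes for making sterols and fatty acids, 33 tested, included 19 falls and 5 rises (median -0.23), against 11 higher and 14 lower under total scaling. The count of rises was 2 without NC replicate 1, 3 without NC replicate 2 and 1 without shSHCBP1_2 replicate 3. HMGCS1 and SQLE, early steps of sterol synthesis, changed by -0.76 (SE 0.041, edgeR adjusted p = 6.1e-18) and -0.72 (SE 0.039, edgeR adjusted p = 4.7e-18). FASN, the fatty acid synthase, fell from 1135 ± 46.5 CPM in NC to 713 ± 10.5 in shSHCBP1_2. TM7SF2, a sterol reductase, rose by 0.62.

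The genes of disulfidptosis itself and of the actin skeleton were compared next, since disulfidptosis is the subject of the series. Disulfidptosis, cystine and NADPH genes had 5 of 25 higher and 12 lower (median -0.080). Under total scaling the sign turned (9 higher and 3 lower, median 0.076), but the median stayed below the 0.17 of all genes. Besides the cystine carrier, OXSM, a mitochondrial fatty acid synthesis enzyme, rose by 0.59. The transketolase gene TKT of the pentose phosphate pathway changed by -0.36. NCKAP1, the WAVE complex subunit that promotes disulfidptosis, had a change of -0.011 (SE 0.046, edgeR adjusted p = 0.87). Of 36 actin, WAVE complex and adhesion genes 22 fell and 3 rose (median -0.14), while total scaling gave 13 higher and 12 lower (median 0.015). The count of rises was 1 without shSHCBP1_2 replicate 2. Filamin A, FLNA, which cross-links actin, stood at 1685, 1689 and 1793 CPM in NC and at 983, 975 and 998 CPM in shSHCBP1_2, a change of -0.81 (SE 0.028, edgeR adjusted p = 1.0e-23). Talin 1, TLN1, which links integrins to actin, fell by 0.64 on the log2 scale, and CD2AP rose by 0.31. Among 28 genes of the matrix and of mesenchymal cells, 16 fell and 4 rose (median -0.27, and -0.12 under total scaling). Besides FN1 and COL14A1, LOX, which cross-links collagen, fell from 125 ± 2.65 CPM in NC to 78.6 ± 2.10 in shSHCBP1_2, and VIM from 446 ± 15.9 CPM in NC to 325 ± 2.85 in shSHCBP1_2. The summed level of 14 fibroblast genes was 264 to 269 CPM in NC and 223 to 227 CPM in shSHCBP1_2, with COL1A2 and FAP at 0 in all 6, and their part in the matrix result was not tested. Of the 6 fibroblast genes tested only FBLN1 fell, from 175 ± 1.78 CPM in NC to 134 ± 3.69 in shSHCBP1_2, and COL1A1, PDGFRA, ACTA2, PDPN and S100A4 did not pass. Of the transcription factors that repress epithelial genes, SNAI2 and ZEB2 rose by 0.64 and 0.41, and SNAI1 fell by 0.42 on the log2 scale. TWIST1 passed as lower at -0.22, a call lost without shSHCBP1_2 replicate 2 (-0.17) and under total scaling.

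NF-kB genes held more rises than falls. Of 21 tested, of 30, 9 rose and 3 fell (median 0.29). RELB, a subunit of the non-canonical pathway, stood at 9.04, 7.09 and 7.59 CPM in NC and at 17.9, 17.4 and 17.7 CPM in shSHCBP1_2, a change of 1.16 (SE 0.11, edgeR adjusted p = 8.9e-11). NFKB1, the p50 precursor, rose by 0.89, and the inhibitors NFKBIE and TNFAIP3 rose by 0.78 and 0.77. REL fell by 0.84 on the log2 scale, and NFKBIA and ICAM1 did not pass (-0.081 and -0.018). Interferon-stimulated and RNA-sensing genes had 24 of 38 members with enough counts to be tested, 5 higher and 3 lower (median -0.017, and 0.14 under total scaling). The shares, 20.8% and 12.5%, were below the 23.2% and 23% of all genes tested. IFIT5 and IFIT1, which bind foreign RNA, rose by 1.35 and 0.86. IRF7, which amplifies the interferon response, stood at 8.08, 8.21 and 10.9 CPM in NC and at 4.69, 4.39 and 4.05 CPM in shSHCBP1_2, a change of -1.05 (SE 0.16, edgeR adjusted p = 1.0e-06). IRF9, a partner in the interferon-activated transcription complex, did not pass (-0.33).

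Zinc finger and histone genes were mostly higher where called. Of 419 genes named ZNF, most of them encoding DNA-binding proteins, 212 rose and 41 fell (median 0.34), 48 of them by more than 2-fold and none fell by as much. Under total scaling the median was 0.49. These genes are of low level, and the rises were most frequent there: in the second lowest band of level 58.9% rose and 4.0% fell, beside 24.9% and 13.9% of all genes. In the highest band 6 of 21 rose and 7 fell. ZNF543 was at 1.33, 0.821 and 1.40 CPM in NC and at 4.69, 4.39 and 4.19 CPM in shSHCBP1_2, a change of 1.89 (SE 0.25, edgeR adjusted p = 9.2e-08). Of 22 replication-dependent histone genes tested, of 73, 16 rose and 0 fell (median 0.84). In the second lowest band 81.8% of 11 rose, beside 24.9% of all genes there. A gene could enter the test through counts in 1 group alone, and how many of the 22 did so was not counted. Histone messages mostly lack a poly(A) tail, while the libraries were selected for it, and copies are near-identical, so these counts cover only what was selected and assigned. HIST1H2BC was at 0.222, 0.299 and 0.590 CPM in NC and at 1.73, 1.62 and 1.78 CPM in shSHCBP1_2, on 15 counts in NC, a change of 2.18 (SE 0.41, edgeR adjusted p = 3.9e-05). It passed the filter through shSHCBP1_2 alone. HIST3H2A, the member of highest count, rose from 35.7 ± 1.73 CPM in NC to 51.5 ± 1.73 in shSHCBP1_2, a change of 0.53 (SE 0.066, edgeR adjusted p = 2.0e-08).

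Antisense RNA genes named AS had 45 of 415 higher and 87 lower (median -0.062), but 68 higher and 53 lower under total scaling. Their reads cannot be told from those of the opposite gene. LRRC75A-AS1, itself a host of small nucleolar RNAs, fell from 327 ± 7.61 CPM in NC to 229 ± 6.27 in shSHCBP1_2. Divergent transcripts had 9 of 47 higher (19.1%) and 4 lower (8.51%), with NUP50-DT at 1.26 (SE 0.15, edgeR adjusted p = 6.3e-09). Of 12 metallothionein genes, which bind zinc and copper, 3 could be tested and 2 fell: MT2A stood at 96.3, 103 and 103 CPM in NC and at 57.4, 49.7 and 52.9 CPM in shSHCBP1_2, a change of -0.92 (SE 0.055, edgeR adjusted p = 9.8e-17), and MT1X changed by -0.92 (SE 0.067, edgeR adjusted p = 2.6e-14). Among 7 sirtuins, NAD-dependent deacylases, 3 rose and 1 fell. SIRT4 of the mitochondria was at 1.04, 0.896 and 1.25 CPM in NC and at 3.93, 2.70 and 3.43 CPM in shSHCBP1_2, a change of 1.65 (SE 0.28, edgeR adjusted p = 7.6e-06). SIRT3 had a change of -0.20, a call lost without NC replicate 3 or shSHCBP1_2 replicate 1 or 3 (-0.11, -0.18 and -0.19). In the list of DHRS2 and related dehydrogenase genes 7 of 25 rose, DHRS2 among them, and 3 fell (median 0.013), with RDH14 at 1.05 and HSD17B8 at -0.77. Proteasome subunits had 16 of 41 higher and 9 lower (median 0.019), none by more than 2-fold. Lysosome and autophagy genes had 8 of 34 higher and 14 lower (median -0.065). The falls numbered 9 without shSHCBP1_2 replicate 3. Under total scaling 13 were higher and 5 lower (median 0.091, beside 0.17 over all genes). TFEB, the factor that switches these genes on, rose by 0.62, and PSAP, a precursor of sphingolipid activators, fell by 0.47 on the log2 scale.

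Genes with counts in only 1 of the groups were of low count. With more than 3 counts over the 3 libraries of one group, 315 names were at 0 in NC and 158 at 0 in shSHCBP1_2, clone-type names left out. In all, 34440 names, clone types included, had a count in the 6 libraries. More genes had a count in each shSHCBP1_2 library (27366 to 27576) than in each NC library (26589 to 26752). The part of this difference in the uneven numbers at 0 was not tested. LCK, a tyrosine kinase known from T cells, had the most, at 20, 14 and 16 counts in shSHCBP1_2 and 0 in NC. Against 3 counts over the NC group it was at least 15.4-fold higher. CD14, a monocyte receptor, stood at 0.296, 0.373 and 0.295 CPM in NC and at 2.83, 2.64 and 1.99 CPM in shSHCBP1_2, a change of 2.92 (SE 0.39, edgeR adjusted p = 7.9e-08) on 13 and 109 counts. The summed level of the 20 leukocyte and endothelial genes, CD14 among them, was 14.8 to 15.4 CPM in NC and 14.2 to 20.04 CPM in shSHCBP1_2, and CD3D, MS4A1 and PTPRC were at 0 in all 6. ELOVL3, a fatty acid elongase gene, and FOXE3 each had 29 counts in shSHCBP1_2 and 0 in NC, at least 8.92-fold higher. Of the 15 epithelial genes tested, 4 rose (26.7%, beside 23.2% of all genes tested) and 0 fell. The other 11 did not pass, CDH1, KRT18 and EGFR among them. KRT8 and LAMB3 rose by 0.20 and 1.29, the latter from 1.86 CPM in NC. EPCAM did so by 0.43, a call lost without NC replicate 2 or shSHCBP1_2 replicate 3 (0.28 and 0.38). Of the 23 neurofilament, neural and embryonic kidney genes tested, 10 rose (43.5%) and 5 fell (21.7%), with a median of 0.13. Over all genes tested these shares were 23.2% and 23%. NEFL and NEFM fell by 0.40 and 0.40 on the log2 scale, while INA, also a neurofilament gene, rose by 0.46.

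The second hairpin was set directly against the first, without NC, in a fit of the 9 libraries of the table. Of 18044 genes tested, 1217 differed (6.74%), 668 higher and 549 lower with the second hairpin. Among the 24 genes of largest change against NC, 11 differed between the hairpins, each further from NC with the second, but they had been chosen for their size with that hairpin. SHCBP1 did not pass this test either, at -0.089 (edgeR adjusted p = 0.431). FOS and FOSB, both lower than in NC, lay nearer to NC with the second hairpin: FOS was higher with the second hairpin than with the first by 0.45 (edgeR adjusted p = 4.4e-06) and FOSB by 0.35 (edgeR adjusted p = 0.00815). CYR61 and DUSP1, also lower than in NC, did not pass this test, at 0.12 (edgeR adjusted p = 0.143) and 0.067 (edgeR adjusted p = 0.442). Among stress genes, HSPA6 was higher by 1.26 (edgeR adjusted p = 0.00326) and HSPH1 by 0.40 (edgeR adjusted p = 7.4e-09). E2F3 was higher by 0.54 (edgeR adjusted p = 8.7e-07).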

How the data were processed

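Messenger RNA was selected with poly-T beads and sequenced as paired ends with a NEBNext Ultra kit, per the labels' protocols. The protocol describes no step that marks strand, so a gene and its antisense partner cannot be told apart. The authors deposited raw counts of reads for each gene symbol in one table with NC and both SHCBP1 hairpin sets. For the aligner and the counting program: not given in the sources used here. As genome build, the submitters' processing notes name mm10, whereas the symbols are human, so no coordinates were used. The other table, of another target, was not used here.

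Of 58735 rows, 1768 with repeated or date-like names (200 names) were dropped, 0.226% to 0.236% of counts. filterByExpr (count minimum 10, total minimum 15) left 17391 genes. It asks for enough counts in as many libraries as a group holds. A gene could thus pass through 1 group alone, as CD14, HSPA6, HIST1H2BC, HES5, ETV5, SHC3 and SHC4 did through shSHCBP1_2. TMM scaling and the quasi-likelihood F test of edgeR 4.0.16 (R 4.3.3), with Benjamini-Hochberg adjustment at 0.05, compared the 6 libraries with no block. SE is the size of the change over the square root of F. Gene groups are described by counts and medians with no test. The members and lists were chosen with earlier results of these data known. Named genes are SHCBP1, the 12 largest non-overlapping rises and falls at a mean log2 CPM of 2 or more without clone-type and non-coding names ending in AS or DT or starting with LINC, up to 3 rises and 3 falls and the most abundant member per group, line markers, and genes at 0 in a group. Other list members in the text were chosen for their function after values were seen. Simulated data with 100 genes changed per size (16841 genes) gave 87% recovery at 1.5-fold and 93% at 2-fold, with 12 false calls. The changed genes were drawn above a floor of level in NC, as many raised as lowered, and all others were unchanged. The simulation therefore does not show how the fit does with many changes, a shift of scale or low counts. Alternatives used limma 3.58.1 and DESeq2 1.42.0. At this depth 3 counts are 0.202 to 0.223 CPM. Replicates of a group differed by more than counting noise in every pair (chi-square 1.74 to 2.99 per degree of freedom), so none was counted as a duplicate. Fold bounds cover counting error only. Results for some genes are not reported here.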

Additional observations from a re-analysis of the deposited data

Results flagged for a closer look

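Both hairpins target the same gene, and the direct test between their libraries called 1217 genes, a difference between groups. Of the 24 genes with the largest change against NC, these differed: DHRS2 (0.82, second minus first hairpin, log2), CHAC1 (0.67), C1orf226 (0.69), ZBTB2 (0.56), RASD2 (0.49), RN7SL2 (-0.99), CDHR5 (-0.59), XIST (-0.25), DEXI (-0.43), MGC12916 (-0.38) and FN1 (-0.34). With 3 libraries a group, single libraries were not tested for standing apart.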

How the results depend on the processing

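The count of 8029 called genes ran from 7002 to 7775 when 1 library was left out, and was 6605 with DESeq2, of which 6600 were called in the same direction in the main result. Requiring more than 1.5-fold left 2262 (1459 higher, 803 lower) and more than 2-fold 872 (547 and 325). Total-count scaling gave 6853 higher and 2012 lower, 77.3% higher, a median of 0.17 over all genes and SHCBP1 at 0.17. Leaving out 1 library moved SHCBP1 from -0.030 (without NC replicate 3) to 0.049, the rises from 3501 to 3838 and the falls from 3499 to 3937. Total scaling also turned CDKN2A (0.098), GADD45B (0.028), ATF4 (0.12), HSP90AB1 (0.0026), LINC00632 (0.017), KIF23 (0.0004), NCKAP1 (0.15), PSAT1 (0.10), CCT2 (0.075), CCT6A (0.14) and CCT7 (0.020), and the medians of replication (0.068), disulfidptosis (0.076), actin (0.015), lysosome (0.091), mitochondrial ribosomal protein (0.14), antisense (0.093), endoplasmic reticulum (0.056), interferon (0.14) and leukocyte and endothelial genes (0.098). Of 4488 refits of 300 named genes other than SHCBP1, 4289 kept their side of the threshold and, where called, their direction, 177 lost and 11 gained the call, and 11 turned with a call in at least 1 of the fits. The labels' replicate numbers did not pair the libraries (correlations of deviations between same numbers 0.0020, 0.045 and 0.051, with NC replicate 2 closer than NC replicate 1 to shSHCBP1_2 replicate 1), and a fit with a replicate block called 8249 genes. Depth limits genes under about 1 CPM, where leaving out 1 library ended calls such as those of SHC3 and SHC4.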
